A study of Homo sapiens with 8 samples.

Results

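The 10 genes described here are MYC and the immediate-early transcription factor genes FOS, FOSL1, FOSL2, JUN, JUNB, JUND, EGR1 and IER2, with IER3, taken by symbol from the 86369 gene rows of the count table. Of the 10, 9 passed the filter on low counts and were among the 13840 genes tested, and IER3 did not pass it. They were measured in HepG2 cells, a human hepatocellular carcinoma line grown in medium with 10% serum, that had received a short interfering RNA against NAT10 (siNAT10) or a negative control siRNA (siControl) by lipofection 2 days before RNA was taken. NAT10 encodes an RNA cytidine acetyltransferase. Each siRNA had 4 libraries of mRNA 3' ends, with replicates 1 and 2 of both siRNAs in batch 1 and replicates 3 and 4 in batch 2. The labels say nothing of what a batch was beyond its number, and nothing says that replicates were separate cultures, so p-values measure the spread between these libraries, which may be technical. No other cell line or rescue was used here, and all libraries come from transfected cells.

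Immediate-early genes are switched on within minutes of a growth factor or stress signal without new protein synthesis, largely through the ERK and other MAP kinase cascades acting on SRF, the factor that binds CArG boxes, and on its ELK partners. FOS and JUN family proteins pair through leucine zippers into the dimers called AP-1, which bind TGANTCA sites, and MYC pairs with MAX on E-boxes and is known for driving growth and ribosome production. Their mRNAs are mostly short-lived, with AU-rich elements in the 3' UTR that recruit decay factors such as ZFP36. In liver, JUN and FOS family genes, EGR1 and MYC are known to be induced early after partial removal of the organ, and MYC is often raised in hepatocellular carcinoma.

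The sequence stretches shown first are those whose motifs bear on the genes that differed or on the factors measured with them. In the RefSeq promoter table (GRCh38.p14, with 250 bases before to 50 after the start of each entry), 7 of the 10 genes matched an entry, and MYC, FOSL1 and IER3 had none. Both strands were searched for the CArG box, the AP-1 site TGANTCA, the CRE TGACGTCA, the E-box CACGTG and the EGR site GCGNGGGCG. EGR1 (plus strand, chr5:138465229-138465528) was the single gene among the 7 with CArG boxes, of which it had 2, with first bases at -105 and -83 from the start, and 1.29% of all 35116 promoters held one. It also held an EGR site, as did 9.43% of promoters. FOSL2 (plus strand, chr2:28392608-28392907) held an AP-1 site just past the start of its entry, and 7.71% of promoters did. That window lies wholly inside the GENCODE gene, which begins at chr2:28392448, so the sequence around the gene's first base was not searched. Capitals mark the EGR site and both CArG boxes in the EGR1 promoter and the AP-1 site in the FOSL2 promoter, each written 5' to 3'.
EGR1 promoter: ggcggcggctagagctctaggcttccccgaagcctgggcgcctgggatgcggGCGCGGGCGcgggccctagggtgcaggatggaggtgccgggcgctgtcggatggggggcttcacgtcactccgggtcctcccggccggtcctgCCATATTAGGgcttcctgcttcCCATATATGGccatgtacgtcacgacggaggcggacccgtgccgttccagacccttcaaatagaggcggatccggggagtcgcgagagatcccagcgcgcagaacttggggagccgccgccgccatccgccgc
FOSL2 promoter: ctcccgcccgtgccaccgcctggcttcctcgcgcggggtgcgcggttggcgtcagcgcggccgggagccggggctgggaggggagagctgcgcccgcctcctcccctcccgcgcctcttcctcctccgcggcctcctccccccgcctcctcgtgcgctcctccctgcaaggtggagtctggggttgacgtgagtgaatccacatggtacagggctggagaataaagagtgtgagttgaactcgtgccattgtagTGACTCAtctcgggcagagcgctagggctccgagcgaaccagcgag
JUND held a CRE with its first base at -200, a sequence found in 1.85% of promoters, and the E-box, found in 7.26%, was in none of the 7. None of the 5 motifs was found in the windows of FOS, JUN, JUNB and IER2. Sequence outside these windows was not searched, so motifs further upstream of any of the 7 would be missed.

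In the 3' UTRs of GENCODE 44, the AU-rich pentamer ATTTA occurred in 9 of the 10 genes, and IER2 was the exception. It occurred in 72.7% of 10885 tested genes with a 3' UTR. The longer AU-rich core TATTTAT was in 7 of the 10 (MYC, FOS, JUN, JUND, FOSL1, FOSL2 and IER3), against 35.5% of the tested genes. FOS held 5 ATTTA in 806 bases, or 6.20 per kb, against a median of 1.68 per kb over the tested genes, and FOSL2 held 9 in 4869 bases, or 1.85 per kb. The 2 TATTTAT cores of FOS are shown because FOS differed most between batches (plus strand, chr14:75282060-75282088 and chr14:75282084-75282112). The JUNB stretch (plus strand, chr19:12793207-12793235) is shown because JUNB is the gene of the 10 called between siRNAs and the one whose 3' UTR holds the heptamer GTCTCTA, which was picked from earlier results of these libraries and also occurs in the NAT10 coding sequence. Capitals mark TATTTAT in FOS and GTCTCTA in JUNB.
FOS 3' UTR, first core: tgtttttaattTATTTATtaagatggatt
FOS 3' UTR, second core: ggattctcagaTATTTATatttttatttt
JUNB 3' UTR: acacgcacttaGTCTCTAaagagtttatt

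The libraries held 9731718 to 27977110 counts, and the 2 shallowest were siNAT10 replicates 3 and 4. NAT10, the target, stood at 39.2 to 77.8 CPM (counts scaled to a common library total) in siControl and 12.2 to 22.3 CPM with siNAT10 (log2 fold change -1.66, standard error (SE) 0.14; Benjamini-Hochberg adjusted p 2.0e-05 by the quasi-likelihood test of edgeR, the test used throughout). Hepatocyte lineage markers were present, with 14 of 15 tested and a summed level of 19687 to 22511 CPM in siControl and 15071 to 17559 CPM in siNAT10; FGG (0.48 on the log2 scale), TF (-0.49) and APOA2 (-0.48), 3 of the 14 against 2.28% of all tested genes, were called between siRNAs. These calls were fragile: FGG was lost in 6, TF in 5 and APOA2 in 7 of the 8 fits that left out a library, and none of the 14 was called without siControl replicate 1 or without siNAT10 replicate 1, 2 or 3. Between batches 3 of the 14 were higher and 1 lower in batch 2. That is 28.6%, near the 25.3% of all tested genes called. Among them were HNF4A (0.67), FGA (-0.39) and SERPINA1 (1.44, at 1.70 to 13.2 CPM). Summed fibroblast markers did not exceed 1.67 CPM, with 5 of 8 at 0 throughout, and endothelial markers did not exceed 0.796 CPM, with 2 of 5 at 0. PDGFRB, the 1 fibroblast marker tested, was lower in batch 2 (-1.29, edgeR adjusted p 0.020). It was called in 5 of the 8 fits that left out a library. Of 7 immune markers 3 were at 0, and the summed level of 409 to 557 CPM in siControl and 333 to 389 CPM in siNAT10 was nearly all LYZ, which encodes lysozyme (log2 fold change -0.42, edgeR adjusted p 0.043; not called in 7 of the 8 fits that left out a library, nor with unscaled library sizes, where the adjusted p was 0.065). The part of these shifts in the results below was not tested. Mitochondrially encoded genes took 1.06% to 1.53% of counts in batch 1 and 1.64% to 1.91% in batch 2.

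The 9 tested genes spanned a wide range of abundance. A 3' tag count does not grow with transcript length, so levels in CPM were set side by side. JUN was the most abundant at a mean of 655 CPM over the 8 libraries, followed by JUND at 359, EGR1 at 94.4, JUNB at 77.8, FOSL2 at 66.7, MYC at 27.0, FOS at 8.60, IER2 at 7.15 and FOSL1 at 4.54 CPM. IER3 averaged 0.114 CPM and was left out of this order, because its count could not be read as its expression (given with its neighbours after the batch comparison). Neighbours in this order whose ranges over libraries overlapped were EGR1 and JUNB, JUNB and FOSL2, FOS and IER2, and IER2 and FOSL1; of these, IER2 was above FOSL1 in all 8 libraries, EGR1 above JUNB in 6, JUNB above FOSL2 in 5 and FOS above IER2 in 4. JUN ranked 223 among the tested genes by mean level and FOSL1 was more abundant than 29.1% of them.

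**Figure D1:**
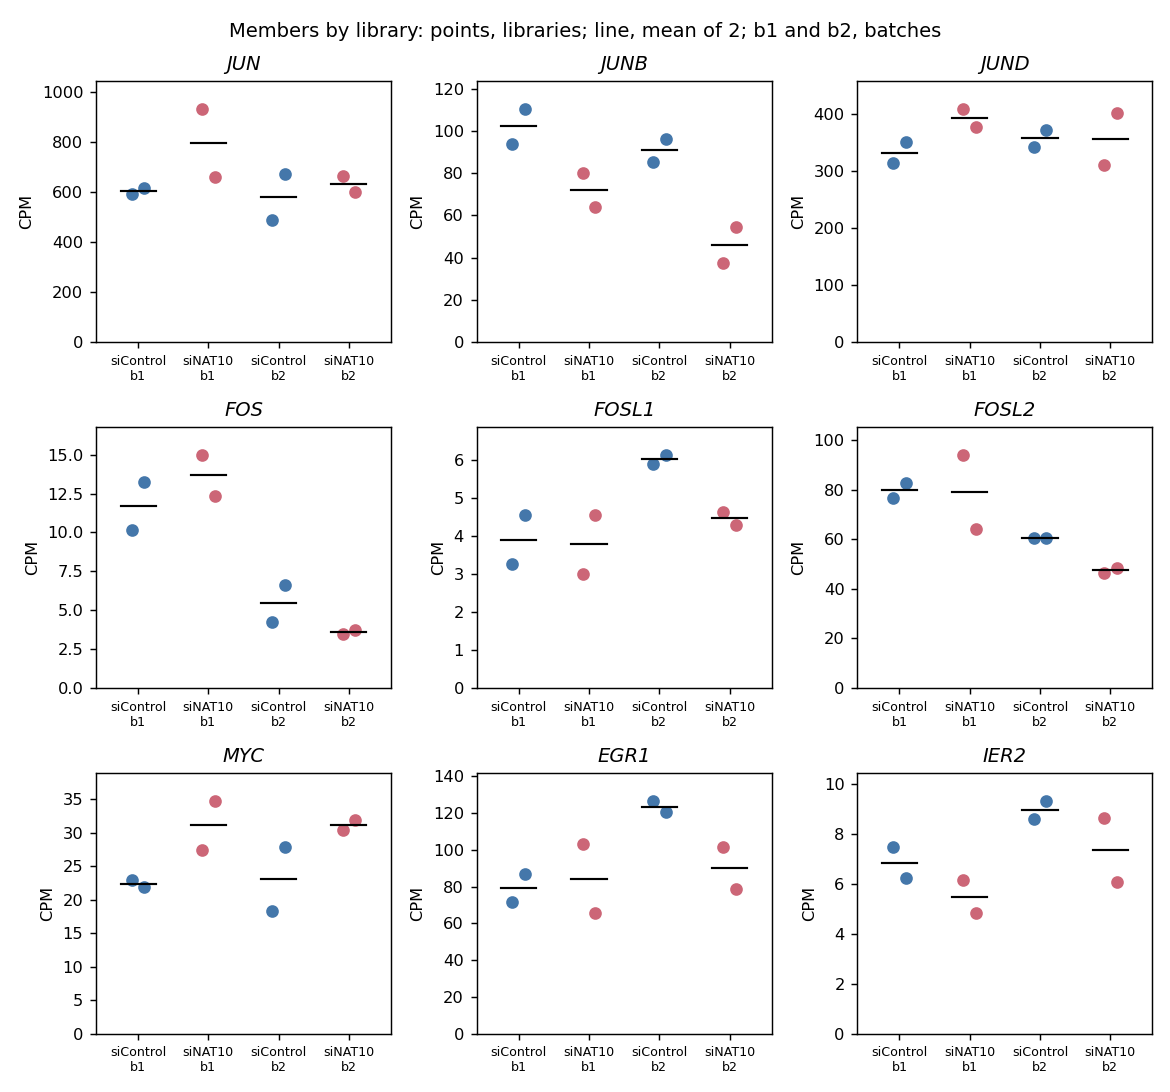
Level of each of the 9 tested genes in every library, in CPM on a linear axis from 0, by siRNA and batch (b1, b2). Points are libraries and lines are means of 2. The siNAT10 points of JUNB lie below all siControl points, the batch 2 points of FOS and FOSL2 lie below all their batch 1 points, and for MYC siControl replicate 4 lies just above siNAT10 replicate 1.

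Between siRNAs, JUNB was lower in the siNAT10 libraries and was the 1 called gene of the 9 tested (edgeR adjusted p under 0.05), where 2.28% of all tested genes were called, 1.46% lower and 0.816% higher. JUNB (ENSG00000171223; GRCh38 chr19:12791486-12793315, plus strand) encodes a JUN family protein that forms AP-1 dimers with weaker activity than JUN on many sites. Its siControl libraries read 93.9, 110.4, 85.4 and 96.2 CPM (replicates 1 to 4) and its siNAT10 libraries 80.3, 64.1, 37.7 and 54.5 CPM. The highest siNAT10 library was below the lowest siControl library, a separation seen in one direction or the other in 5.40% of tested genes. The means were 96.5 ± 10.4 CPM in siControl and 59.1 ± 17.8 CPM in siNAT10 (SD, n = 4 each), which put siNAT10 at 60.1% of the siControl level in the fit (log2 fold change -0.74, SE 0.14, edgeR adjusted p 0.011). In bulk RNA, fewer cells of a type and less RNA per cell cannot be told apart. The exact two-sided permutation test gave p = 0.029, the smallest that 70 arrangements can give, and 0.056 with labels exchanged within batches, the smallest that 36 can give.

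The decrease of JUNB was present in both batches, with a log2 fold change of -0.50 in batch 1 and -0.98 in batch 2, although neither batch alone passed the threshold (edgeR adjusted p 0.10 and 0.20). Leaving out each library in turn gave -0.85 to -0.58 on the log2 scale, and the call was lost in the fit without siNAT10 replicate 2 (edgeR adjusted p 0.062). It was also lost without the batch term (-0.70, edgeR adjusted p 0.31). JUNB made up 8.43% to 10.3% of the summed CPM of JUN, JUNB and JUND in the siControl libraries and 3.72% to 5.81% in the siNAT10 libraries, again without overlap.

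The other JUN family members did not pass. JUN, the classical partner of FOS, read 595, 616, 489.6 and 673 CPM in siControl and 933, 662, 667 and 601 CPM in siNAT10, with siNAT10 replicate 1 standing above the rest and the groups overlapping (log2 fold change 0.26, SE 0.13, edgeR adjusted p 0.35). JUND, which is expressed more steadily than its relatives in many resting cells, ran from 313 to 371 CPM in siControl and from 310.1 to 408 CPM in siNAT10 (0.12, SE 0.11, edgeR adjusted p 0.66).

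MYC (ENSG00000136997) had higher values in siNAT10 but did not pass the threshold in the fit with batch and siRNA. The siControl libraries read 22.9, 21.9, 18.4 and 28.0 CPM and the siNAT10 libraries 27.5, 34.8, 30.4 and 31.9 CPM. Every siNAT10 library exceeded both siControl libraries of its own batch, while over all libraries the groups overlapped through siControl replicate 4 and siNAT10 replicate 1. How many of all tested genes separated within both batches was not counted. The means were 22.8 ± 3.97 and 31.2 ± 3.06 CPM (SD, n = 4 each), and the log2 fold change was 0.46 (SE 0.13, edgeR p 0.0031, adjusted p 0.083). An unadjusted edgeR p under 0.05, a looser cutoff than the p of MYC, was seen in 15.7% of tested genes. A larger absolute log2 fold change between siRNAs was fitted in 11.2% of them. The exact two-sided permutation p was 0.057, and 0.056 with labels exchanged within batches, the smallest that test can give.

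Whether MYC was called depended on the fit, while its log2 fold change was positive in each. Batch 1 alone gave 0.48 and batch 2 alone 0.44 on the log2 scale, and leaving out each library in turn gave 0.36 to 0.59. It passed with the replicate number as a block (adjusted p 0.040, where edgeR called 3.28% of genes; within batches the numbers showed no common pairing, with r of -0.06 in batch 1 and 0.17 in batch 2), with DESeq2 (adjusted p 0.035, 5.12% of genes called), with no filter on low counts (edgeR adjusted p 0.032, 2.13% called) and without siControl replicate 4 (edgeR adjusted p 0.037).

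**Figure D2:**
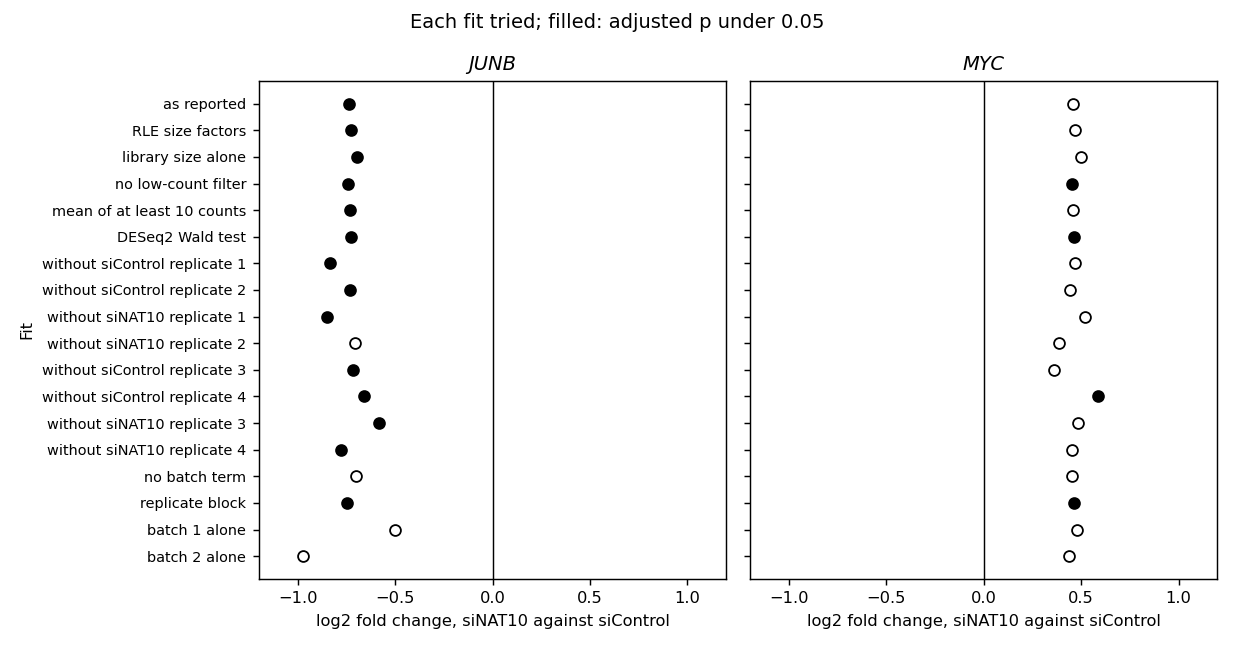
Log2 fold change of JUNB and MYC between siNAT10 and siControl in each fit, one fit per row, filled where the adjusted p was under 0.05. JUNB lies between -0.98 and -0.50 and MYC between 0.36 and 0.59, so each gene kept its direction in every fit shown while its call varied.

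The FOS family and the remaining immediate-early genes did not pass the threshold in the siRNA comparison. FOS, the prototype of the family, had a log2 fold change of -0.088 (SE 0.20, edgeR adjusted p 0.88), which was 0.23 in batch 1 and -0.58 in batch 2. FOSL2, the most abundant of the family, had -0.18 (0.12, 0.53 in the same order) and FOSL1 -0.21 (0.20, 0.67). FOSL2 took 79.1% to 85.8% of the summed CPM of FOS, FOSL1 and FOSL2 in every library. EGR1, a zinc finger factor of the EGR site, had -0.18 (SE 0.15, edgeR adjusted p 0.62), with 71.8, 86.7, 127 and 120.5 CPM in siControl and 103, 65.8, 102 and 78.6 CPM in siNAT10; its value was 0.091 in batch 1 and -0.45 in batch 2. IER2, a short nuclear protein of the early response, had -0.30 (SE 0.17, edgeR adjusted p 0.40), from 6.21 to 9.32 CPM in siControl and 4.83 to 8.63 CPM in siNAT10.

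**Figure D3:**
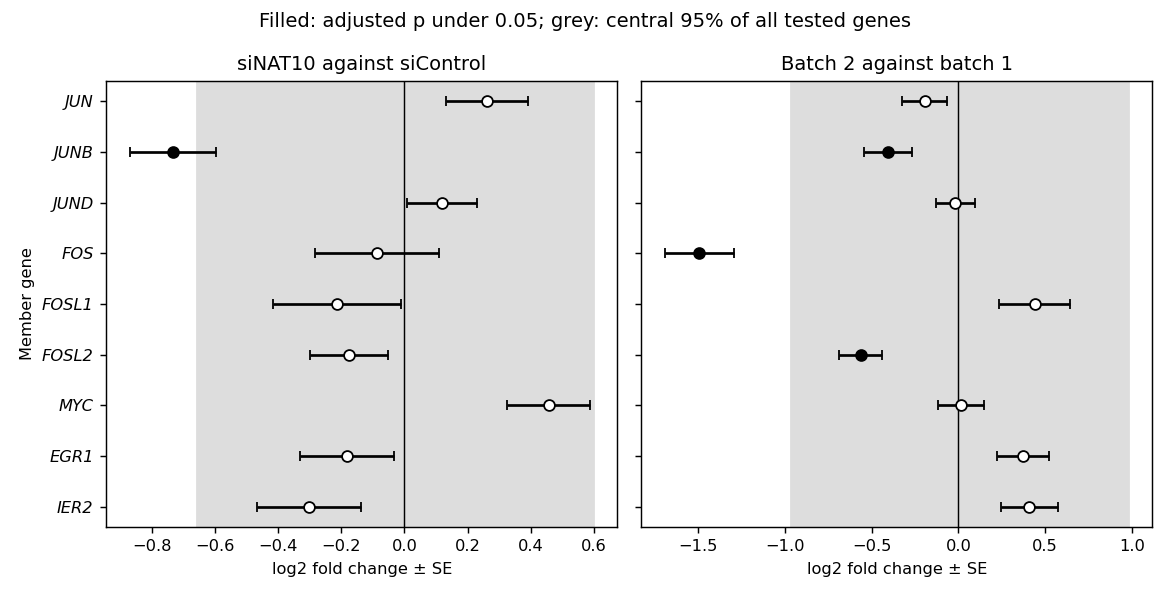
Fitted log2 fold change of the 9 tested genes with its SE as bars, for siNAT10 against siControl and for batch 2 against batch 1. Filled points had an edgeR adjusted p under 0.05, and the grey band spans the central range of all tested genes, -0.66 to 0.60 and -0.96 to 0.98. JUNB between siRNAs and FOS between batches lie outside it.

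Between batches, FOS, FOSL2 and JUNB were lower in batch 2, 3 of the 9 tested genes, where 25.3% of all tested genes were called, 12.2% lower and 13.0% higher. A share of 3 in 9 is near that background, so the number says little of the 9 as a group. FOS (ENSG00000170345; GRCh38 chr14:75278826-75282230, plus strand) read 10.1 and 13.2 CPM in the siControl and 15.0 and 12.4 CPM in the siNAT10 libraries of batch 1, against 4.22 and 6.65 CPM and 3.45 and 3.72 CPM in batch 2. All batch 2 libraries lay below all batch 1 libraries, as 22.7% of tested genes did in one direction or the other. The means were 12.7 ± 2.02 and 4.51 ± 1.46 CPM (SD, n = 4 each), and batch 2 was fitted at 35.6% of the batch 1 level (log2 fold change -1.49, SE 0.20, edgeR adjusted p 8.0e-05; exact two-sided permutation p 0.029, the smallest possible). A larger absolute batch difference was fitted in 1.11% of tested genes.

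The drop of FOS was called within each siRNA as well, at -1.12 in the siControl libraries alone and -1.93 in the siNAT10 libraries alone (edgeR adjusted p 0.015 and 0.00025). The difference between these values, the interaction of batch and siRNA, was -0.81 (SE 0.37, edgeR unadjusted p 0.043, adjusted p 1.0) and did not pass. Across genes the interaction called 0% (0 of 13840) with edgeR, 3.04% at an unadjusted p under 0.05 and 1 gene with DESeq2, and none of the 9 genes was called by either. FOS took 11.3% to 15.3% of the summed CPM of FOS, FOSL1 and FOSL2 in batch 1 and 5.96% to 9.09% in batch 2.

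FOSL2 (ENSG00000075426; GRCh38 chr2:28392448-28417317, plus strand) read 76.5, 82.8, 94.1 and 64.1 CPM in batch 1 (siControl 1 and 2, siNAT10 1 and 2) and 60.6, 60.3, 46.3 and 48.6 CPM in batch 2 (siControl 3 and 4, siNAT10 3 and 4), again without overlap. Its log2 fold change was -0.56 (SE 0.12, edgeR adjusted p 0.0034; exact permutation p 0.029), with -0.74 in the siNAT10 libraries alone (edgeR adjusted p 0.018) and -0.39 in the siControl libraries alone, which did not pass (edgeR adjusted p 0.12). JUNB had -0.40 (SE 0.14, edgeR adjusted p 0.040), but its batches overlapped. It was also called in the siNAT10 libraries alone (-0.65, edgeR adjusted p 0.038). The call was lost in 5 of the 8 fits that left out a library (without siControl replicate 2 or 3, siNAT10 replicate 1, 2 or 3), in the siControl libraries alone (-0.17, edgeR adjusted p 0.56) and without the siRNA term (-0.34, edgeR adjusted p 0.32).

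EGR1, IER2 and FOSL1 had higher values in batch 2 that did not pass. EGR1 averaged 81.9 ± 16.7 CPM in batch 1 and 107 ± 21.7 CPM in batch 2 (SD, n = 4 each; log2 fold change 0.37, edgeR adjusted p 0.080). In the siControl libraries alone EGR1 was called at 0.65 (edgeR adjusted p 0.021), and in the siNAT10 libraries alone its value was 0.093; it also passed with no filter on low counts and without siNAT10 replicate 1 or 4. IER2 had 0.41 (edgeR adjusted p 0.080), called without siNAT10 replicate 4 (0.040), and FOSL1 had 0.44 (edgeR adjusted p 0.13). MYC (0.017), JUND (-0.017) and JUN (-0.19) had batch values with edgeR adjusted p of 0.94, 0.93 and 0.30.

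IER3, which encodes a short stress-response protein, was not testable. It had 5, 2, 2 and 2 counts in the siControl and 5, 3, 0 and 0 counts in the siNAT10 libraries (replicates 1 to 4); a count of 0 allows up to 0.235 and 0.293 CPM (3 counts) in siNAT10 replicates 3 and 4, for counting error only. Around it on chromosome 6, 71 of 78 protein-coding genes within 1 Mb (91.0%) had no count in any library, against 28.5% of all 20038 protein-coding genes. They included TUBB, a tubulin, and FLOT1, both used by most cells, and NRM and GNL1, while ABCF1 had 15 counts and DDR1 and MDC1 1 count each; these neighbours were named after their values were seen. The count of IER3 was therefore not read as its expression. The lncRNA IER3-AS1 lies over its 3' end on the other strand. Around the other 9 genes, 0% to 35.2% of protein-coding neighbours were at 0.

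**Figure D4:**
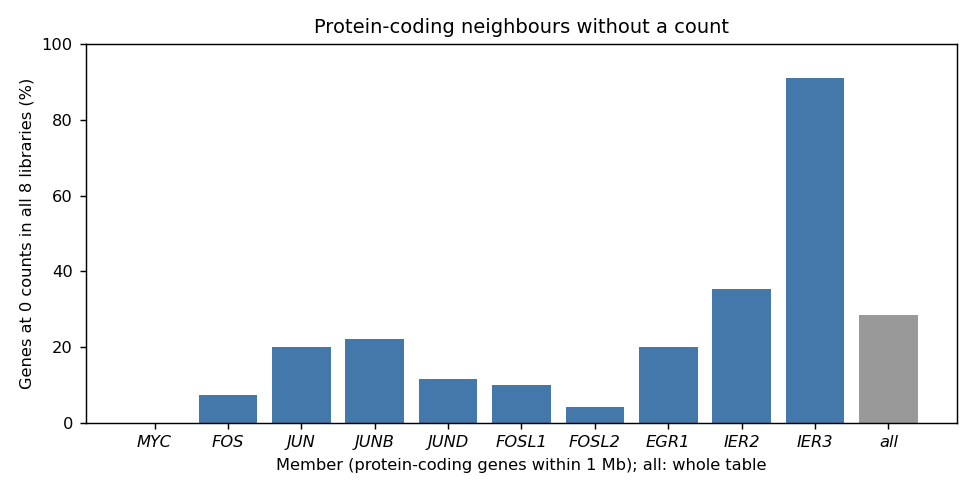
Share of protein-coding genes within 1 Mb of each of the 10 genes that had 0 counts in all 8 libraries (bars from 0, in percent), beside all protein-coding genes of the table in grey. The bar for IER3 is at 91.0% and the next highest, for IER2, at 35.2%.

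Genes of the same signalling pathway were described by lists, by how many of the tested members were called and by the median log2 fold change, against a median of -0.0024 for siRNA over all tested genes. Of 42 other immediate-early genes tested, 2 (4.76%) were called, both lower with siNAT10, against 2.28% of all tested genes called and 1.46% lower. They were TXNIP (-0.63, edgeR adjusted p 0.022), an inhibitor of thioredoxin, and CCN1 (-0.54, edgeR adjusted p 0.042), a secreted matrix protein. These calls were fragile: TXNIP was lost in 5 and CCN1 in 6 of the 8 fits that left out a library. TXNIP read 113 to 158 CPM in siControl and 68.9 to 109 CPM in siNAT10, without overlap, whereas CCN1 differed far more between batches than between siRNAs and its siRNA groups overlapped. The median of the 42 was -0.028, with 0.062 in batch 1 alone and -0.18 in batch 2 alone. An unadjusted edgeR p under 0.05 was seen for 8 of them, against 15.7% of all tested genes. DESeq2 called 4, 1 higher and 3 lower, where it called 5.12% of all genes. Of 16 ERK feedback and output genes, AREG, an EGF receptor ligand, was the 1 called (6.25%) and fell (-0.58, edgeR adjusted p 0.011), from 56.6 ± 2.43 to 38.0 ± 4.85 CPM (SD, n = 4 each). The median of the 16 was -0.036, 5 had an unadjusted edgeR p under 0.05, and DESeq2 called 3, all lower.

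Of 18 tested genes known as AP-1 targets, AREG and MT2A, a metallothionein (-0.61, edgeR adjusted p 0.0089), fell and 0 rose. The share called was 11.1%, against 2.28% of all tested genes. MT2A read 201, 217, 247 and 223 CPM in siControl and 160.1, 136, 158 and 127 CPM in siNAT10, without overlap. AREG and MT2A were each lost in the fit without siNAT10 replicate 2, the library without which the call of JUNB was lost as well. That fit called 0.534% of all genes it tested, the lowest share among the 8 fits that left out a library. TXNIP, CCN1, FGG, TF, APOA2 and LYZ lost their calls there too, so the shared loss is not particular to JUNB and AP-1 targets. Over the AP-1 target list 13 of 18 values were negative. Of the 18, 10 had an unadjusted p under 0.05, as did 15.7% of all tested genes. The list median was -0.32 on the log2 scale, and -0.42 to -0.30 with each library left out. In batch 1 alone the list median was -0.19, and in batch 2 alone, where 17 were tested, -0.43. The hepatocyte lineage markers had a median of -0.29, with 9 of 14 at an unadjusted p under 0.05. DESeq2 called 5 of the 18, all lower, where it called 5.12% of all genes. All lists, this one included, were chosen with earlier results of these data known, so these shares and medians are a description. AREG is also the called gene of the ERK list, so the 2 lists are not separate on it.

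The remaining lists had no called gene between siRNAs with edgeR or with DESeq2. Their counts at an unadjusted edgeR p under 0.05 stand against 15.7% of all tested genes. Of 29 upstream kinases and factors 4 had an unadjusted p under 0.05 (median -0.057), and MET, the hepatocyte growth factor receptor, had the lowest p (-0.29, edgeR adjusted p 0.15). Of 13 other AP-1 family bZIP factors 1 had (median 0.11), MAFG (0.34, edgeR adjusted p 0.24). Of 23 MYC and MAX network genes 6 had (median 0.095), with the lowest p for MYCBP2 (0.44, edgeR adjusted p 0.11), which passed with the replicate block and with no filter on low counts. Of 55 MYC target genes 2 had, with a median of -0.022 and the lowest p for MAP3K6 (-0.59, edgeR adjusted p 0.16). Of 13 AU-rich element binding proteins and deadenylase genes 4 had (median 0.080), with the lowest p for IGF2BP3 (0.33, edgeR adjusted p 0.21). With unscaled library sizes the MYC target median was 0.020.

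**Figure D5:**
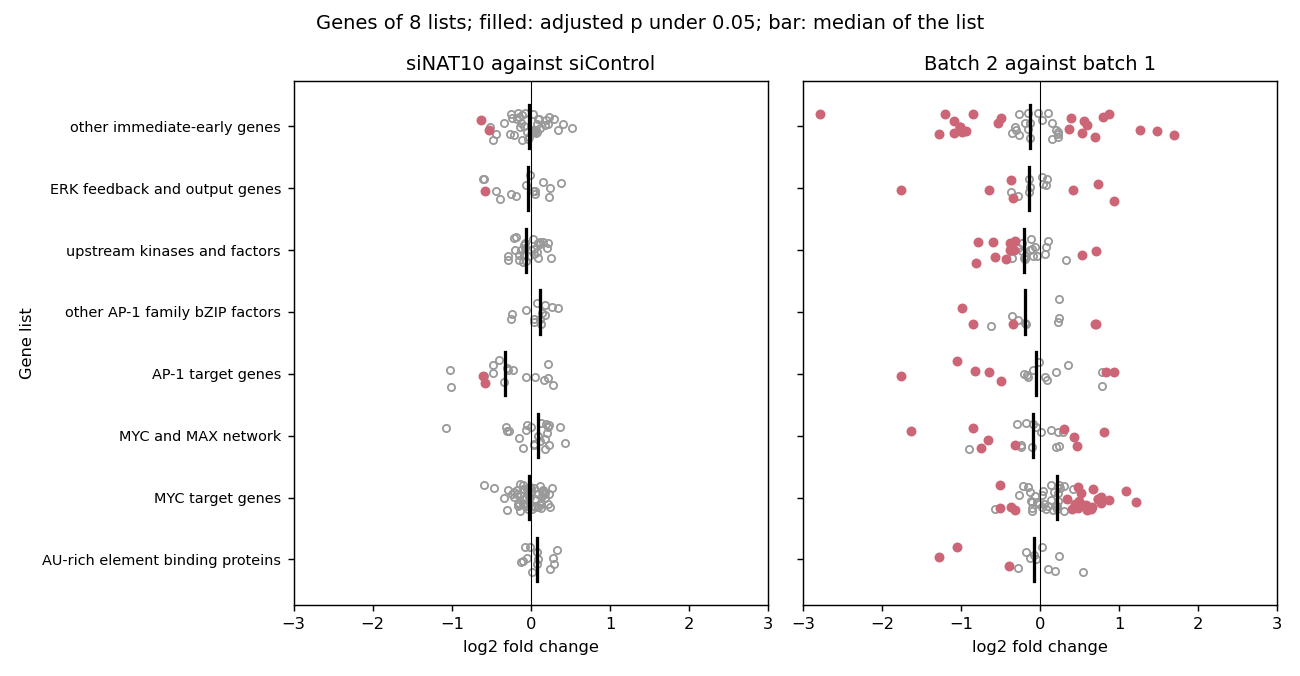
Log2 fold changes of the tested genes of 8 pathway lists, each point a gene, filled where the edgeR adjusted p was under 0.05, with the list median as a bar. Between siRNAs few points are filled and the AP-1 target median lies at -0.32; between batches filled points lie on both sides and the MYC target median lies at 0.21.

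Between batches, where 25.3% of all tested genes were called, the lists are given with their own shares as a description. Of the 42 other immediate-early genes 23 (54.8%) were called, 11 higher and 12 lower in batch 2, so the called genes lay in both directions. SRF rose from 163 ± 13.1 to 533 ± 158 CPM (SD, n = 4 each; log2 fold change 1.70) and CCN1 from 129 ± 38.0 to 308 ± 71.4 CPM (1.26), while SOCS3, a feedback inhibitor of cytokine signalling, fell from 8.87 ± 2.51 to 1.22 ± 0.47 CPM (-2.78). The calls of these 3 held whichever of the 8 libraries was left out. Of the 16 ERK feedback and output genes 3 were higher and 4 lower (43.8% called; 4 genes without siNAT10 replicate 1), with CCND1, cyclin D1, at 0.93, HBEGF, another EGF receptor ligand, at -1.76 and ETV5 at -0.65. Of the 29 upstream kinases and factors 2 were higher and 9 lower (37.9% called), but the count moved with single libraries, to 7 without siNAT10 replicate 3 and 16 without siNAT10 replicate 4, and was 4 in the siControl and 2 in the siNAT10 libraries alone. Among the called genes were NRAS at 0.71, the kinase MAP2K1 at -0.57 and TCF7L2 at -0.81.

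Of the 13 other bZIP factors, which include partners of the FOS and JUN families, 2 were higher and 3 lower in batch 2 (38.5% called; 3 to 5 genes with a library left out), with the small MAF proteins MAFF at -0.99 and MAFK at -0.84 and JDP2, which represses AP-1, at 0.71 on the log2 scale. Of the 18 AP-1 targets 2 were higher and 5 lower (38.9% called), with the integrin ITGA2 at -1.05. Of the 13 AU-rich element binding proteins and deadenylase genes 0 were higher and 3 lower, and the 23.1% called lies below the 25.3% of all tested genes. The 3 were ZFP36, itself an immediate-early gene, at -1.28, and the deadenylase subunits CNOT8 at -1.06 and CNOT1 at -0.40.

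In the MYC network, 4 of 23 genes were higher and 5 lower in batch 2 (39.1% called), with the MAX partners MXI1 at -1.63 and MNT at -0.74 and the deubiquitinase USP28 at -0.65. Of the 55 MYC targets 19 were higher and 4 lower (41.8% called; 17 to 22 higher and 1 to 4 lower with a library left out), with a median of 0.21 (0.16 to 0.24 with each library left out). NOP16 (1.08), RCL1 (1.21) and BYSL (0.76), all of ribosome production, had the lowest p. MYC itself was at 26.8 ± 5.90 CPM in batch 1 and 27.2 ± 6.08 CPM in batch 2 (SD, n = 4 each).

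The genes whose levels followed MYC most closely were sought among 8666 tested genes of at least 8 CPM on average, by Pearson correlation of log2 CPM centred within batch over the 8 libraries. ZUP1, a deubiquitinase (r = 0.998), ANKRD28 (r = 0.984) and VWA1 (r = 0.975) came first. Their own siRNA log2 fold changes were 0.43, 0.25 and 0.22, and none passed (edgeR adjusted p 0.18, 0.33 and 0.29). The points share libraries and depth, and the highest values among 8666 genes over 8 libraries are given as a description.

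GTCTCTA, marked above in JUNB, was in the 3' UTR of 1678 tested genes, 15.4% of those with a 3' UTR. Of these carriers 5.66% were called between siRNAs, 88 lower and 7 higher, against 2.06% of the 9207 genes without it, 94 lower and 96 higher. Between batches 25.6% of carriers and 27.9% of the others were called. The carriers had longer 3' UTRs, with a median of 3233 against 1083 bases, whereas that of JUNB is 500 bases long. Because the heptamer was picked from these libraries, these shares are a description. JUNB was the 1 of the 10 genes that held it, and its part in the level of JUNB was not tested. Another heptamer, TTACAAA, was also searched, and of the 10 genes JUN alone held it, 2 times. Of its 2300 carriers 3.00% were called between siRNAs, 28 lower and 41 higher. Of the 8585 genes without it 2.52% were called, 154 lower and 62 higher.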

How the data were processed

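HepG2 cells with siNAT10 or siControl were profiled by 3' mRNA sequencing (Lexogen QuantSeq; the kit's orientation is given as forward in one label and reverse in another). The authors deposited raw counts, whole numbers for each Ensembl gene, with one column per library. The sample descriptions give the count matrix another name, with a SLAM_ prefix, and it was taken to be this table because the column names match. Per the submitters' processing notes, Trim Galore 0.6.10, cutadapt 3.5, STAR 2.7.9a and featureCounts on GRCh38 were used; the annotation release and the strand and multi-mapping settings are not given in the sources used here. GENCODE 44 gave symbols for 61458 of 86369 identifiers.

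Counts were fitted in R 4.3.3 with edgeR 4.0.16: filterByExpr (minimum count 10), TMM scaling, and the quasi-likelihood test with batch and siRNA as additive terms, Benjamini-Hochberg adjusted over all 13840 tested genes and called under 0.05. CPM are per TMM-scaled library. The batch value is the other term of that fit, and an interaction term gave the third test. Exact permutation tests used log2 CPM (prior count 2). Scripts were tested on simulated data. Alternatives were RLE or unscaled library sizes, other count filters, DESeq2 1.42.0, each library left out, each batch or siRNA alone, no batch or siRNA term, a replicate block and a prior count of 0.5.

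The members, the 12 gene lists and the heptamer GTCTCTA were chosen with earlier results of these data known. Named beside the 10 genes were NAT10, up to 3 called genes of lowest p per list and comparison (or the 1 of lowest p where none was called) and the 3 genes most like MYC. Same-numbered siControl and siNAT10 libraries deviated together across genes (r = 0.39, 0.38, 0.45 and 0.36), but differently numbered libraries of one batch did so too (r = 0.50, 0.38, 0.14 and 0.33), and after centring within batch the same-number r was -0.06 in batch 1 and 0.17 in batch 2. The numbers are therefore not shown to pair libraries within a batch, and the replicate block is given as an alternative that rests on the numbers alone. Replicates within a group and batch differed beyond counting noise (chi-square per degree of freedom 15.8 to 26.9), so none was counted as a repeat. Statements on depth cover counting error only.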

Additional observations from a re-analysis of the deposited data

How the results depend on the processing

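Over 414 recomputed member values, 373 kept direction and side of the threshold, 12 lost a call, 9 gained one and 20 changed sign, the last all for values that were not called. Between siRNAs 315 genes were called (113 higher, 202 lower), 595 with no filter on low counts, 599 with DESeq2, 15 without the batch term, 173 in batch 1 alone, 0 in batch 2 alone with edgeR (946 at an unadjusted p under 0.05; DESeq2 was not run there) and 75 to 286 with each library left out. With unscaled library sizes the split was 138 higher and 149 lower, and the median log2 fold change of all genes was 0.037. With the replicate block 454 genes were called, JUNB stayed called (-0.75, edgeR adjusted p 0.0043), MYC became called (0.46, adjusted p 0.040) and no other of the 9 genes changed its call; batches could not be compared in a paired fit because replicate numbers differ between them. Between batches 3500 genes were called, 1314 in the siControl and 1188 in the siNAT10 libraries alone, and 2531 to 3627 with a library left out. The interaction called 0 genes with edgeR (421 at an unadjusted p under 0.05), 15 with no filter, 1 with DESeq2 and 0 to 2 with a library left out. NAT10 was at -1.58 in batch 2 alone, where it did not pass (edgeR adjusted p 0.086), and at -1.79 to -1.52 with a library left out. Signs changed for FOS between siRNAs (0.046 without the batch term, 0.23 in batch 1 alone, -0.27 to 0.082 with a library left out), EGR1 between siRNAs (0.091 in batch 1 alone), MYC between batches (-0.0012 with unscaled library sizes, -0.012 with no filter, -0.0078 in siNAT10 alone, -0.12 to 0.13 with a library left out), JUND between batches (0.11 in siControl alone, -0.076 to 0.084 with a library left out), and the interaction of MYC (0.019 with unscaled library sizes, -0.33 to 0.28 with a library left out) and of IER2 (-0.23 to 0.26 with a library left out); the cause was not tested. FOSL1, IER2 and FOS, at under 16 CPM in every library, had the fewest counts among the 9 genes. How far depth limited their fits was not tested. In 20 groups of 4 libraries, 0 held a library flagged by its gap from the others as a share of the group's range. A group of 4 spans both batches or both siRNAs, and differences between these widen the range. The count of 0 therefore does not show that no library stood apart. JUN in siNAT10 replicate 1 (933 CPM, against 601 to 667 CPM in the other siNAT10 libraries) was not flagged.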
